A study of Homo sapiens with 4 samples.

Results

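The genes described here encode the receptors of the epidermal growth factor (EGF) family, the ligands that bind them and the inhibitor ERRFI1, in HCT116 cells, a human colorectal cancer line. They were taken by name from a table of 34826 genes and number 9, the receptors EGFR, ERBB2 and ERBB3, the ligands AREG, EREG, HBEGF, TGFA and BTC, and ERRFI1. All 4 libraries came from HCT116 cells with a degron tag on Ki-67, a nuclear protein of dividing cells, so the controls carried the tag as well. The 2 IAA samples received 0.5 mM indole acetic acid (IAA), the auxin that starts degradation of the tagged protein, for 24 hours, and the 2 control samples were untreated. Each sample was grown for 2 days in 3 dishes, and poly-A RNA was sequenced as paired reads. No cells without the tag were among the samples, so exposure to IAA and loss of Ki-67 cannot be told apart. The labels call the samples biological replicates, and p-values set the difference between groups against the spread between these samples. In limma's tests that spread is combined with a variance trend over all genes.

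ERBB receptors are tyrosine kinases of the cell surface that pair up when a ligand binds and then signal through RAS and ERK and through PI3-kinase and AKT. The ligands are made as membrane proteins and are cut loose by metalloproteases such as ADAM17. In the gut epithelium this pathway supports growth and repair.

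Expression was read as TPM, the unit the authors deposited, which corrects read counts for gene length and brings every library to the same total of 1000000. Levels of different genes can therefore be set side by side. Gene positions are on GRCh38, from GENCODE release 29. Reads recovered from TPM and gene length numbered 38733981 and 40920854 in IAA replicates 1 and 2 and 38953166 and 49448043 in control replicates 1 and 2. These totals cover only reads assigned to the 34826 genes and are not the sequencing depth. Simple epithelium markers such as EPCAM and KRT8 were all present, with 8 of 8 at 62.6 TPM or above in every library. Their sums were 4272 and 4688 TPM in IAA replicates 1 and 2 and 4473 and 4458 TPM in control replicates 1 and 2. Blood cell markers (6 of 7 in the table) stayed at or below 0.531 TPM each. Endothelial markers (5 of 5) stayed at or below 0.484 TPM each. Of the 7 fibroblast markers COL1A1 alone reached 1 TPM, with a highest value of 14.8 TPM. The fibroblast markers summed to 15.3 and 13.95 TPM in IAA replicates 1 and 2. In control replicates 1 and 2 they summed to 15.1 and 14.4 TPM. The summed TPM of squamous epithelium markers was 17.3 for IAA replicate 1 and 3.61 for IAA replicate 2, against 3.79 and 4.202 for the controls. That sum, over 8 of 8 genes, set IAA replicate 1 apart from the other libraries. Of its defining genes, CRNN was at 0 in control replicate 1 and no gene was at 0 in every library. Only 4 of the 8 reached 1 TPM in any library, and the highest value of a single gene was 6.73 TPM.

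The promoters of the 3 most abundant genes, ERRFI1, AREG and EREG, and of the receptor that AREG and EREG bind, EGFR, are shown because ERRFI1, AREG and EREG hold most of the transcripts described here and their levels contrast with that of EGFR. They are RefSeq sequences on GRCh38.p14, on the gene's own strand and 5′ to 3′, from 250 bases before the RefSeq start to the base before the RefSeq or GENCODE start, whichever comes first. AREG lies at chr4:74444886-74445133 (plus strand), EREG at chr4:74364895-74365142 (plus), ERRFI1 at chr1:8026310-8026559 (minus) and EGFR at chr7:55018767-55019016 (plus). Capitals mark matches, on either strand, to the TATA box TATAAA, the cAMP response element TGACGTCA, the AP-1 site TGANTCA and the CCAAT box. Only these exact letters were searched, so variants, such as tatatata near the end of the ERRFI1 sequence, are not marked or counted.
AREG: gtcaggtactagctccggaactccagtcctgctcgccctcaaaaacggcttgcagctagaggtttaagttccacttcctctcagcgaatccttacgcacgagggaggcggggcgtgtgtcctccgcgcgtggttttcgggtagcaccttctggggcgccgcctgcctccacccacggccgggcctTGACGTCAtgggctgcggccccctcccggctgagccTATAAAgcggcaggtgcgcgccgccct
EREG: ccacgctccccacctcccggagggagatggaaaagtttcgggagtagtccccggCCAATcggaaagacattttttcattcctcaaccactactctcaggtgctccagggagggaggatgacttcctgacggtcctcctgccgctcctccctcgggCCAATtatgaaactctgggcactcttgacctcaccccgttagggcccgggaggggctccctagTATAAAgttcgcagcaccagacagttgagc
ERRFI1: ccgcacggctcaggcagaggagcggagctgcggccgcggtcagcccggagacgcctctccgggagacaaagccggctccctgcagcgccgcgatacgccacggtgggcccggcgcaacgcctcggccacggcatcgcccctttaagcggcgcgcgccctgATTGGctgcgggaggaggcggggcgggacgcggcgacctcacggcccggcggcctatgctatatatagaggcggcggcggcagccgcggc
EGFR: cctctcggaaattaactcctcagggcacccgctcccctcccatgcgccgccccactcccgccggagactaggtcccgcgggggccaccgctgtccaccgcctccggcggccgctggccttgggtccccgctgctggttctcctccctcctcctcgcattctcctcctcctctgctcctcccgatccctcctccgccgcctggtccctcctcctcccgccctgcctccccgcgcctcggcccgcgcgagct

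AREG and EREG each held TATAAA at a similar place, 29 to 24 bases before the RefSeq start in AREG and 32 to 27 bases before it in EREG. All positions given here are counted from the RefSeq start. The AREG and EREG sequences shown have 248 bases and stop before the GENCODE start, so counts from their printed ends are smaller. Among 35116 RefSeq promoter windows of 250 bases, 10.7% held that motif. The cAMP response element stood 65 to 58 bases before the AREG start and in 1.65% of all windows, and among the windows of the 9 genes it was in that of AREG alone. EREG had CCAAT 196 to 192 and 95 to 91 bases before its start, and ERRFI1 had it on the opposite strand 90 to 86 bases before its start. CCAAT was in 32.0% of all windows. The EGFR promoter shown held none of these motifs, while a second RefSeq window at a start inside the EGFR gene held TATAAA and the AP-1 site. The AP-1 site was also in a window of ERBB2 and in 6.57% of all windows. The core of aryl hydrocarbon receptor sites, GCGTG, was in windows of AREG, EREG, TGFA and BTC and in 32.2% of all windows. No matches overlapped each other in the sequences shown. GC content was 65.3% for AREG, 58.1% for EREG, 75.2% for ERRFI1 and 73.6% for EGFR, against a median of 58% for all windows. RefSeq windows were matched for 8 of the 9 genes, not for ERBB3, with 10 windows in all.

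Levels spread over 2 orders of size, from ERRFI1 at a mean of 849.6 TPM over the 4 libraries to HBEGF at 7.84 TPM. The order was ERRFI1, AREG, EREG, TGFA, ERBB2, EGFR, ERBB3, BTC and HBEGF, with each gene above the next in 4 of 4 libraries. No neighbours in that order had overlapping ranges, the closest being EGFR with a lowest value of 25.3 TPM and ERBB3 with a highest value of 25.2 TPM. The largest step was between EREG and TGFA, a ratio of means of 7.14. Ranked by mean TPM among 12456 measured protein-coding genes, ERRFI1 stood at 109, AREG at 142 and EREG at 260, while ERBB2 stood at 4117, EGFR at 4993 and ERBB3 at 5845. HBEGF stood at 9537. By TPM the ligand transcripts thus outnumbered those of the receptors. Summed ligand TPM was 12.95 and 13.1 times the summed receptor TPM in IAA replicates 1 and 2. In control replicates 1 and 2 it was 11.8 and 13.1 times. These ratios and the order rest on counted lengths of 9039 to 12521 bases for the receptors and 1648 to 5717 bases for the ligands. How far those lengths match the transcripts in these cells was not tested.

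**Figure D1:**
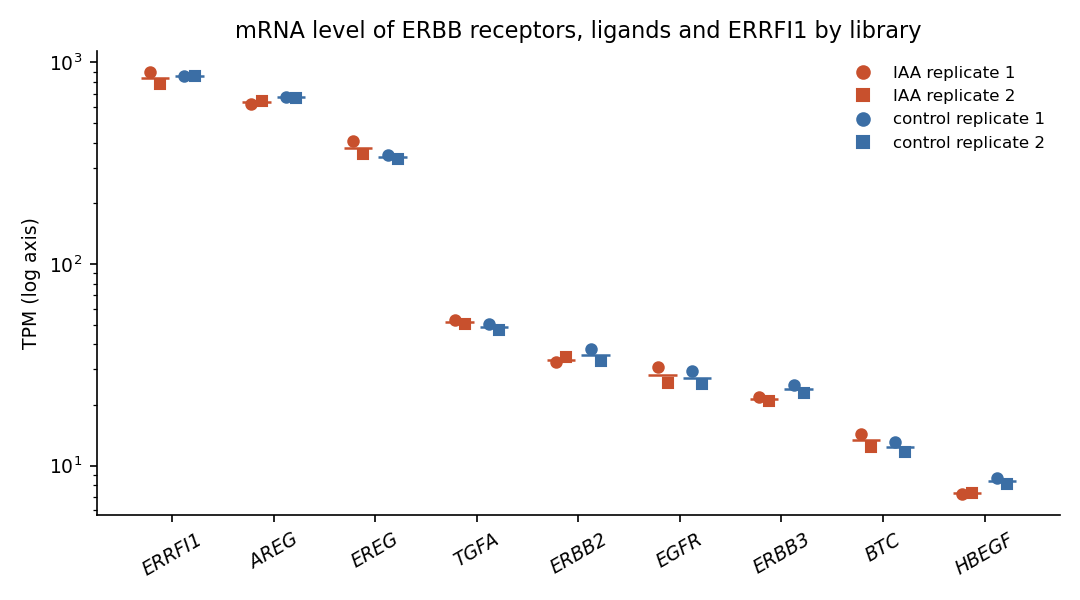
TPM of each gene in each library, on a log axis, with genes in order of their mean. Points are libraries (circles for replicate 1, squares for replicate 2), short lines are group means, and IAA stands left of control. ERRFI1, AREG and EREG lie at 332 TPM or more in every library and the other genes at 52.9 TPM or less.

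The differences between IAA and control cells were small for all 9 genes. None passed the threshold of an adjusted p of 0.05 in limma's test over 17896 genes, where percent called was 0, and none had an unadjusted p under 0.05, which 742 genes or 4.15% had. By limma voom on reads recovered from the TPM values, 0 of the 9 passed and 1 gene in all did (0.00559%). On protein-coding genes alone 0 of the 9 passed (0.297% of genes did), and 0 did without IAA replicate 1 (2.46%), while without IAA replicate 2 EREG passed (7.32%). The log2 fold changes, on the log2(TPM + 1) scale, ran from -0.18 for HBEGF to 0.15 for EREG, with 4 positive (44.5% of all tested genes were) and 5 negative (55.5%), and every limma adjusted p was 0.999. Their median was -0.04, against -0.02 over all tested genes, and their median size regardless of sign was 0.09, as it was over all tested genes. The 95% intervals reached from -0.46 (HBEGF) to 0.41 (BTC), so that ratios of TPM + 1 below 0.726 or above 1.32 lay outside the interval of each of the 9. In bulk RNA of this kind, fewer cells with a transcript and less transcript per cell cannot be told apart.

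By position, the IAA values of AREG, HBEGF and ERBB3 were under each control value, those of EREG and TGFA were over each control value, and those of EGFR, ERBB2, BTC and ERRFI1 overlapped. That is 3 of 9 below, where 17.7% of all tested genes were below, and 2 of 9 above, where 11.8% were above. Without overlap there were thus 5 of 9 genes, against 29.5% of all tested genes.

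**Figure D2:**
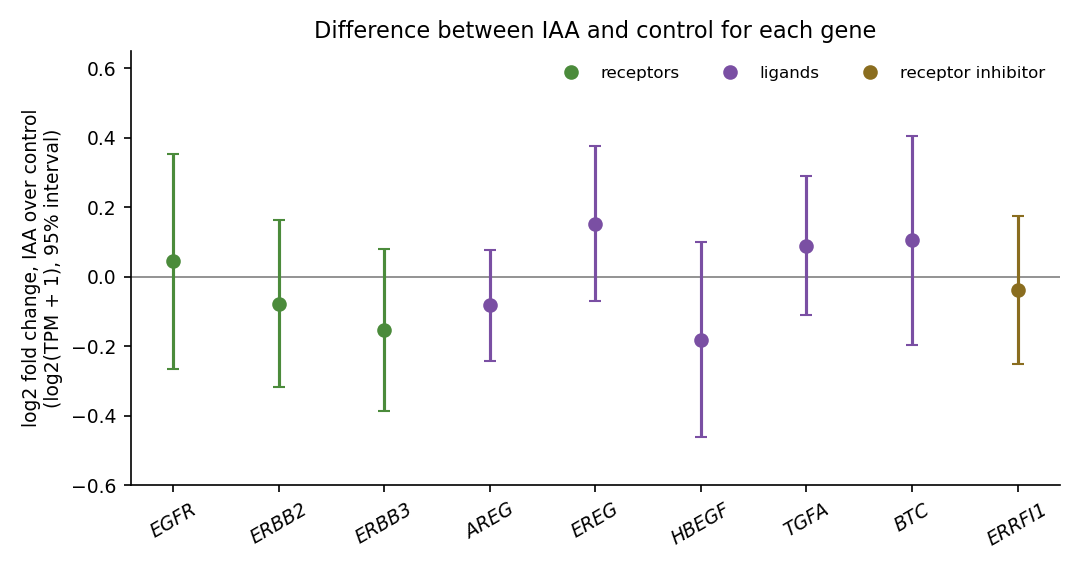
Log2 fold change of IAA over control for each gene on the log2(TPM + 1) scale, with 95% intervals from limma, coloured by role. Every interval includes 0, from HBEGF at -0.18 to EREG at 0.15.

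Among the receptors, EGFR (ENSG00000146648.17, chr7:55019021-55211628, plus strand), which binds all 5 of the ligands, had 30.8 and 25.7 TPM in IAA replicates 1 and 2 and 29.4 and 25.3 TPM in control replicates 1 and 2. The groups overlapped, and in each group the replicate numbered 1 was the higher. The means were 28.2 ± 3.64 TPM in IAA and 27.3 ± 2.90 TPM in control (SD, n = 2), a log2 fold change of 0.04 (standard error 0.13). Its sign was not stable, being -0.08 without IAA replicate 1 and -0.06 without control replicate 2. EGFR-AS1, an antisense gene inside the EGFR span, had at most 0.425 TPM, and the use of strand in counting is not given in the sources used here.

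ERBB2 (ENSG00000141736.13, chr17:39687914-39730426, plus strand) is the receptor with no known ligand of its own and the preferred partner of the others. Among the receptors it had the highest TPM. It had 32.6 and 34.5 TPM in IAA replicates 1 and 2 and 37.8 and 33.2 TPM in control replicates 1 and 2. Control replicate 1 was the highest, and the IAA values lay above and below control replicate 2. The means were 33.5 ± 1.34 TPM in IAA and 35.5 ± 3.27 TPM in control (SD, n = 2), a log2 fold change of -0.08 (standard error 0.10), which became 0.01 without control replicate 1. MIEN1 and PGAP3 on the opposite strand share 1931 and 8884 bases with the ERBB2 span, and reads from the shared exons cannot be assigned without strand. MIEN1 had 57.2 and 63.0 TPM in IAA and 58.9 and 65.8 TPM in control, with overlap. PGAP3 had 10.7 and 10.7 TPM in IAA and 12.6 and 11.6 TPM in control, below both controls. What such reads add to the ERBB2 values was not tested.

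ERBB3 (ENSG00000065361.15, chr12:56076799-56103505, plus strand), a receptor for neuregulins with a weak kinase that signals mainly through PI3-kinase, had 21.9 and 21.0 TPM in IAA replicates 1 and 2 and 25.2 and 22.9 TPM in control replicates 1 and 2. Both IAA libraries were below both controls. The means were 21.5 ± 0.675 TPM in IAA and 24.0 ± 1.64 TPM in control (SD, n = 2), a log2 fold change of -0.15 (standard error 0.10), with a limma unadjusted p of 0.159 and an adjusted p of 0.999. Summed over the 3 receptors, TPM was 85.3 and 81.1 in IAA replicates 1 and 2 and 92.3 and 81.3 in the controls, and the groups overlapped (exact two-sided permutation p = 0.667, where 2 against 2 libraries cannot give less than 0.333).

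AREG, EREG and BTC belong to a cluster of EGF-like ligand genes on chromosome 4 that also holds EPGN and spans 486 kb from the start of EPGN to the far end of BTC. EREG and AREG are neighbours on the same strand, 56.4 kb apart. Within the cluster the levels went from EPGN, with 2 and 9 reads in IAA replicates 1 and 2 and 5 and 14 reads in the controls, to AREG with the highest level. AREG and EREG together made up 93.3% and 93.4% of the summed TPM of the 5 ligands in IAA replicates 1 and 2 and 93.4% and 93.7% in control replicates 1 and 2.

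**Figure D3:**
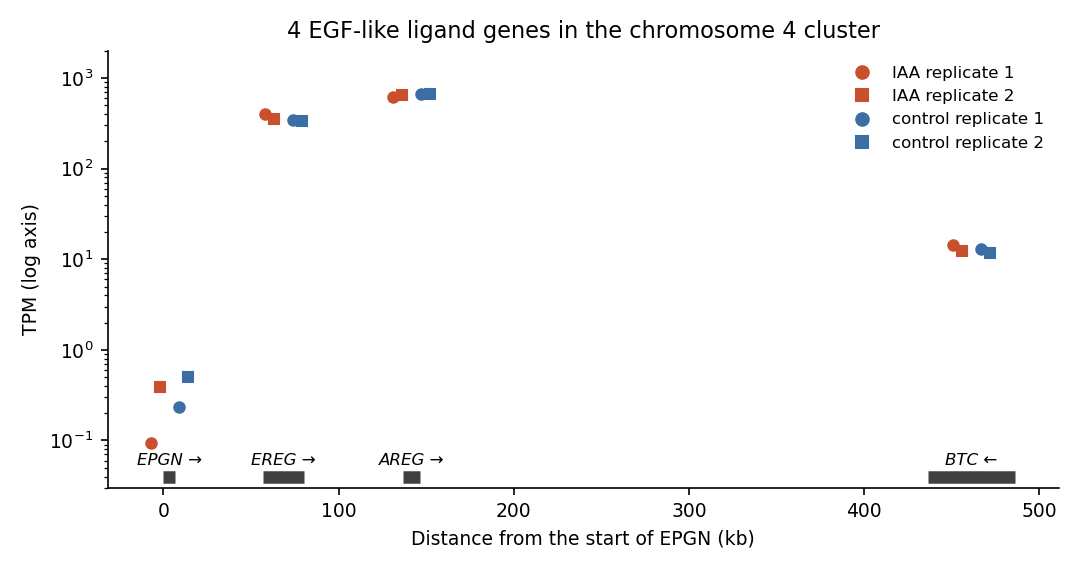
TPM of the 4 ligand genes of the chromosome 4 cluster, on a log axis, against distance in kb from the start of EPGN. Dark bars are gene spans with arrows for strand, and points are libraries, IAA left of control. EREG and AREG stand at 332 TPM or more, BTC between 11.6 and 14.4 TPM and EPGN below 1 TPM.

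AREG, which encodes amphiregulin, a ligand of EGFR alone (ENSG00000109321.10, chr4:74445134-74455009, plus strand), had 625 and 642 TPM in IAA replicates 1 and 2 and 673 and 668 TPM in control replicates 1 and 2. Both IAA libraries lay below both controls. The means were 633 ± 11.97 TPM in IAA and 671 ± 3.17 TPM in control (SD, n = 2), a difference of -5.58% of the control mean. The log2 fold change was -0.08 (standard error 0.07, 95% interval -0.24 to 0.08), with a limma unadjusted p of 0.252 and an adjusted p of 0.999. It kept its sign with any library left out, at -0.10 to -0.06. Each library gave between 12230 and 17085 AREG reads, and the 95% exact Poisson intervals, which cover counting error only, had a half-width of at most 1.78%.

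EREG, which encodes epiregulin, a ligand of EGFR and ERBB4 (ENSG00000124882.3, chr4:74365143-74388751, plus strand), had 406 and 349.9 TPM in IAA replicates 1 and 2 and 346 and 332 TPM in control replicates 1 and 2. Both IAA libraries lay above both controls, but IAA replicate 2 exceeded control replicate 1 by little and IAA replicate 1 stood apart. The means were 378 ± 39.6 TPM in IAA and 339 ± 10.2 TPM in control (SD, n = 2). The IAA replicates differed by 14.8% of their mean and the controls by 4.25%, against counting half-widths of at most 1.29%. The log2 fold change was 0.15 (standard error 0.09, 95% interval -0.07 to 0.38), with a limma unadjusted p of 0.145 and an adjusted p of 0.999.

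How large the EREG difference was depended on which IAA library was used. Without IAA replicate 1 it was 0.05. Without IAA replicate 2 it was 0.26 with a limma adjusted p of 0.0331, in a fit that takes the single IAA library to vary as the controls do and in which limma's prior degrees of freedom were infinite, so that each gene's variance was read from the trend over all genes alone. In that fit 707 of 17488 genes, or 4.04%, were called higher. Over all alternatives the limma adjusted p of EREG ran from 0.0331 to 1.00. IAA replicate 1 is the library with the high squamous marker sum of 17.3 TPM, where the other libraries had 3.61 (IAA replicate 2) and 3.79 and 4.202 TPM (controls), and its part in the EREG value was not tested.

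Because AREG and EREG had opposite signs, their ratio was taken within each library, a quantity chosen after the values were seen. AREG TPM was 1.54 and 1.83 times EREG TPM in IAA replicates 1 and 2 and 1.94 and 2.01 times in control replicates 1 and 2. The mean ratio was 1.69 ± 0.209 in IAA and 1.98 ± 0.0501 in control (SD, n = 2). The groups did not overlap, and the exact two-sided permutation p was 0.333, the smallest that 2 against 2 libraries can give.

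BTC, which encodes betacellulin, another ligand of EGFR and ERBB4 (ENSG00000174808.11, chr4:74744759-74794686, minus strand), had 14.4 and 12.4 TPM in IAA replicates 1 and 2 and 13.1 and 11.6 TPM in control replicates 1 and 2. The groups overlapped. The means were 13.4 ± 1.43 TPM in IAA and 12.4 ± 1.05 TPM in control (SD, n = 2). The log2 fold change was 0.11 (standard error 0.12), and 0.003 without IAA replicate 1. BTC rested on 433 to 508 reads, and counting error alone gave half-widths of 8.80% to 9.54%.

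TGFA, which encodes transforming growth factor alpha, a ligand of EGFR (ENSG00000163235.15, chr2:70447280-70554193, minus strand), had 52.9 and 50.6 TPM in IAA replicates 1 and 2 and 50.3 and 47.0 TPM in control replicates 1 and 2. Both IAA libraries lay above both controls, IAA replicate 2 only just. The means were 51.8 ± 1.635 TPM in IAA and 48.6 ± 2.33 TPM in control (SD, n = 2), a log2 fold change of 0.09 (standard error 0.08). The sign held with any library left out, at 0.04 to 0.14, and the counting intervals of IAA replicate 2 (48.9 to 52.4 TPM) and control replicate 1 (48.5 to 52.1 TPM) overlapped.

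HBEGF, which encodes heparin-binding EGF-like growth factor, a ligand of EGFR and ERBB4 that is also the receptor of diphtheria toxin (ENSG00000113070.7, chr5:140332843-140346631, minus strand), had 7.22 and 7.34 TPM in IAA replicates 1 and 2 and 8.65 and 8.14 TPM in control replicates 1 and 2. Both IAA libraries lay below both controls. The means were 7.28 ± 0.0821 TPM in IAA and 8.39 ± 0.359 TPM in control (SD, n = 2), a difference of -13.2% of the control mean. The log2 fold change was -0.18 (standard error 0.11, 95% interval -0.46 to 0.10), with a limma unadjusted p of 0.165 and an adjusted p of 0.999, and -0.22 to -0.14 with any library left out. HBEGF rested on 259 and 284 reads in IAA and 306 and 381 reads in control, the fewest of the 9 genes. The counting intervals of 6.37 to 8.16 TPM and 6.51 to 8.25 TPM in IAA overlapped those of 7.70 to 9.67 TPM and 7.34 to 8.997 TPM in control, so counting error was not small beside the difference.

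Summed over the 5 ligands, TPM was 1105 and 1062 in IAA replicates 1 and 2 and 1091 and 1067 in control replicates 1 and 2. The means were 1083 ± 30.6 TPM in IAA and 1079 ± 17.1 TPM in control (SD, n = 2), and the log2 ratio was 0.006 (exact two-sided permutation p = 1). The difference between the group means was smaller than the spread of the replicates.

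ERRFI1, also known as MIG6, is a cytoplasmic protein that binds the kinase domain of EGFR, blocks it and is itself induced by the receptor's signal (ENSG00000116285.12, chr1:8004404-8026308, minus strand). It had 897 and 781 TPM in IAA replicates 1 and 2 and 859.5 and 860.3 TPM in control replicates 1 and 2. The controls differed by 0.0906% of their mean and lay between the IAA replicates, which differed by 13.8%. The means were 839 ± 82.0 TPM in IAA and 859.9 ± 0.551 TPM in control (SD, n = 2), a log2 fold change of -0.04 (standard error 0.09). With between 41927 and 55867 reads per library the counting half-widths were at most 0.958%, well under the gap between the IAA replicates. The sign turned to 0.06 without IAA replicate 2 and was -0.14 without IAA replicate 1.

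IAA replicate 1 was the highest library for 5 of the 9 genes (EGFR, EREG, TGFA, BTC and ERRFI1) and the lowest for 3 (ERBB2, AREG and HBEGF). Over all tested genes it was the highest for 34.4% and the lowest for 29.04%. Control replicate 1 was the highest for the other 4 genes, as it was for 38.7% of all tested genes. IAA replicate 2 and control replicate 2 were the highest for 0 of the 9, against 16.6% and 10.2% of all tested genes. IAA replicate 2 was the lowest for 2 (ERBB3 and ERRFI1), against 32.3% of all tested genes. Control replicate 2 was the lowest for 4 (EGFR, EREG, TGFA and BTC), against 25.9%, and control replicate 1 for 0, against 12.7%.

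**Figure D4:**
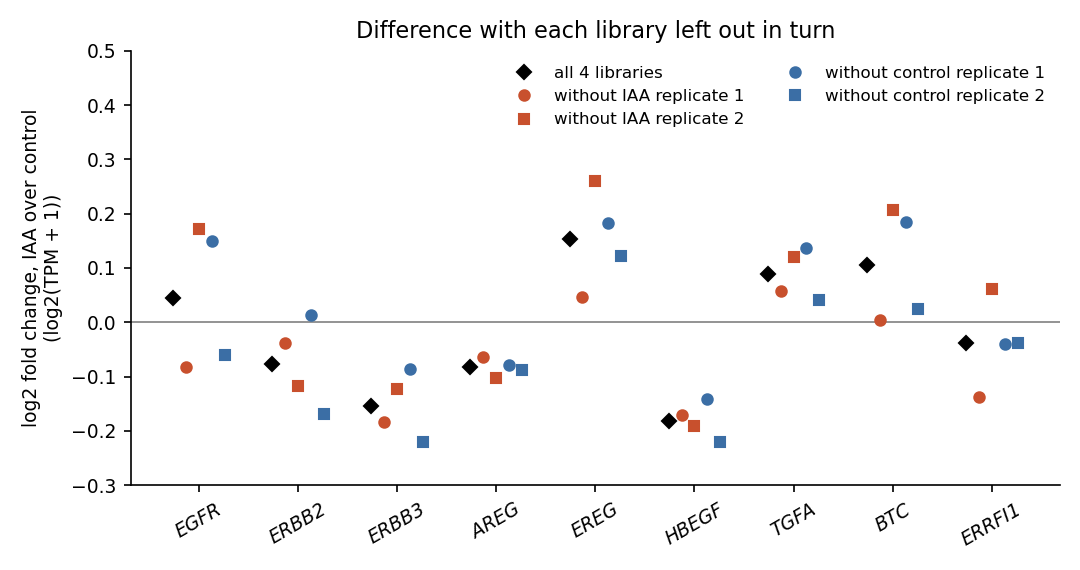
Log2 fold change of IAA over control for each gene with all 4 libraries (diamonds) and with each library left out in turn. AREG, HBEGF and ERBB3 stay below 0 and EREG, TGFA and BTC above 0, while EGFR, ERBB2 and ERRFI1 cross it.

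Other members of the family were scarce. ERBB4, the receptor for neuregulins and several EGF-like ligands, had 1 and 2 reads in IAA replicates 1 and 2 and 3 and 2 reads in control replicates 1 and 2. EGF itself had 0.646 and 0.458 TPM in IAA and 0.501 and 0.337 TPM in control, from 47 and 36 reads in IAA and 36 and 32 reads in control. NRG1, a neuregulin that binds ERBB3, had 9 and 20 reads in IAA and 32 and 20 reads in control. ERBB4, EGF, EPGN and NRG1 did not reach the minimum for testing. The neuregulins NRG2 and NRG4 did, with 1.94 and 2.74 TPM for NRG2 in IAA against 2.49 and 2.57 TPM in control, and 1.29 and 1.13 TPM for NRG4 in IAA against 1.15 and 0.833 TPM in control. NRG3 was not among the 34826 genes under that name.

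The rest of the pathway was read from 7 lists with 79 genes, of which 71 were tested. By limma 0 were higher and 0 were lower past the threshold, 0 had an unadjusted p under 0.05 (4.15% of all tested genes did), and 0 passed by voom. Of the 71 genes 31 had positive and 40 negative fold changes, their median was -0.02 as it was over all tested genes, and their range was -0.20 to 0.18. Of the 71, 3 had both IAA libraries over both controls and 7 had both under them, against 11.8% and 17.7% of all tested genes. The genes named for each list had the smallest limma p in each direction within their list, and none passed.

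Among 10 tested genes of ligand shedding and trafficking, 4 were positive and 6 negative with a median of -0.02. ADAM10, a metalloprotease known from mouse cells to shed EGF and betacellulin, had 49.8 and 39.9 TPM in IAA and 43.0 and 40.3 TPM in control, and CNIH1, a carrier of cargo out of the endoplasmic reticulum, had 91.4 and 82.1 TPM in IAA and 82.2 and 81.99 TPM in control. RHBDF2, an inactive rhomboid that carries ADAM17 to the surface, had 20.1 and 21.9 TPM in IAA and 23.98 and 21.1 TPM in control, and ADAM9, another metalloprotease, had 159.9 and 141 TPM in IAA and 169.5 and 149 TPM in control. All 4 overlapped between groups.

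Among 12 receptor adaptors, 6 were positive and 6 negative with a median of 0.001. GAB2, a docking protein that recruits PI3-kinase, had 4.90 and 3.997 TPM in IAA and 3.94 and 3.67 TPM in control, and EPS8, a substrate of the EGFR kinase, had 51.1 and 46.6 TPM in IAA and 48.6 and 45.6 TPM in control. SHC1, an adaptor that links phosphorylated receptors to GRB2, had 145 and 151 TPM in IAA and 164 and 154 TPM in control. PLCG1, the phospholipase that receptors activate, had 23.4 and 22.5 TPM in IAA and 26.1 and 24.2 TPM in control. SHC1 and PLCG1 lay below both controls, GAB2 lay above both, and EPS8 overlapped.

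Among 16 genes of receptor downregulation, 7 were positive and 9 negative with a median of -0.03. TNK2, a kinase that binds activated CDC42 and takes part in EGFR turnover, had 15.7 and 15.5 TPM in IAA and 19.4 and 16.8 TPM in control, below both controls, with the most negative log2 fold change of any list at -0.20 (standard error 0.11). CBL, the ubiquitin ligase that marks active EGFR for degradation, had 28.3 and 25.2 TPM in IAA and 33.5 and 27.6 TPM in control, with overlap. STAM, part of the complex that sorts ubiquitinated receptors, had 49.3 and 44.98 TPM in IAA and 42.9 and 43.6 TPM in control, above both controls. UBASH3B, which opposes CBL, had 32.96 and 27.5 TPM in IAA and 28.7 and 26.8 TPM in control, with overlap.

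Downstream, the 10 genes of RAS, RAF, MEK and ERK had 4 positive and 6 negative values with a median of -0.03. Of these 10, 0 had both IAA libraries above both controls or both below them, against 29.5% of all tested genes. The 10 tested genes of ligand shedding and trafficking likewise had 0 above and 0 below. NRAS, a RAS GTPase, had 91.3 and 78.7 TPM in IAA and 81.996 and 80.3 TPM in control, and ARAF, a RAF kinase, had 31.1 and 31.6 TPM in IAA and 31.7 and 28.8 TPM in control. MAP2K2, which encodes the kinase MEK2, had 75.6 and 89.96 TPM in IAA and 87.3 and 88.9 TPM in control, and HRAS 47.2 and 61.5 TPM in IAA and 55.7 and 58.6 TPM in control. In HRAS and MAP2K2 IAA replicate 1 was the lowest library and IAA replicate 2 the highest.

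Of the 7 tested PI3-kinase and AKT genes, 4 were positive and 3 negative with a median of 0.03. PIK3R1, the regulatory subunit of PI3-kinase, had 10.1 and 8.51 TPM in IAA and 9.12 and 8.05 TPM in control. AKT1 had 57.9 and 61.0 TPM in IAA and 65.9 and 62.5 TPM in control, below both controls. PDPK1, the kinase that activates AKT, had 17.1 and 16.3 TPM in IAA and 20.3 and 16.95 TPM in control.

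The 14 genes of ERK output and feedback, which follow the activity of the pathway, had 5 positive and 9 negative values with a median of -0.03. DUSP5, a nuclear ERK phosphatase, had 159.7 and 172 TPM in IAA and 188 and 180.2 TPM in control, a log2 fold change of -0.15 (standard error 0.08), with a limma unadjusted p of 0.0898 and an adjusted p of 0.999. SPRY4, a feedback inhibitor of receptor signalling, had 61.0 and 62.3 TPM in IAA and 72.1 and 65.03 TPM in control, also below both controls. FOS, an immediate early transcription factor gene, had 27.0 and 29.1 TPM in IAA and 26.1 and 26.1 TPM in control, above both controls. SPRED1, another inhibitor, had 32.9 and 27.7 TPM in IAA and 28.6 and 28.0 TPM in control, with overlap.

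**Figure D5:**
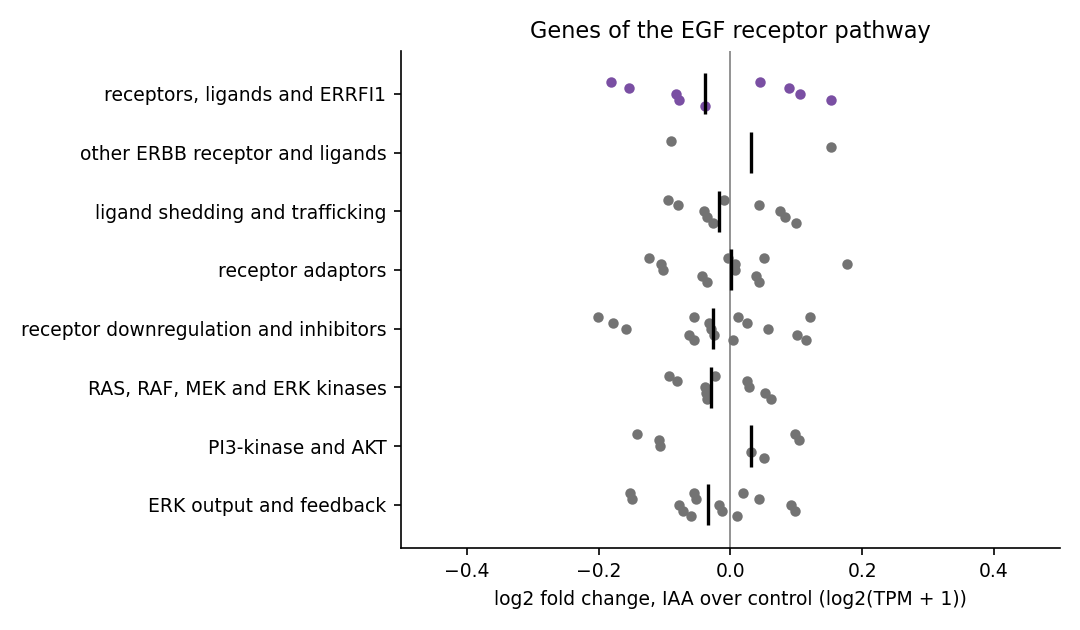
Log2 fold change of IAA over control, on the log2(TPM + 1) scale, of each tested gene of the receptors, ligands and ERRFI1 (top, purple) and of 7 lists of pathway genes (grey), with black lines at the medians. All points lie between -0.20 and 0.18.

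For the most abundant receptor and the most abundant ligand, the genes with the most similar pattern over the 4 libraries were sought among 6335 other protein-coding genes averaging 20 TPM or more, by the root mean square difference of centred log2(TPM + 1). For ERBB2 these were INPPL1, NR1H2 and TMEM184B, with differences of 0.0037, 0.0044 and 0.0069. For AREG they were SLC22A18, DDX39A and C9orf78, with differences of 0.0045, 0.0052 and 0.0056. With 4 libraries and 6335 genes such matches are a description of these libraries only.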

How the data were processed

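Poly-A RNA of 2 IAA and 2 control samples of 1 cell line was sequenced. The authors deposited TPM values per gene and library, with gene lengths. Tools listed in the submitters' processing notes are DESeq2 1.20.0 and featureCounts 1.5.2, builds GRCh38.p12 and hg38, none with its role. Aligner and strand setting are not stated in these sources. The 34826 identifiers all matched GENCODE 29, whose coordinates are printed. Multiplying TPM by length gave whole multiples of a fixed step for 100% of genes (tolerance 1e-06), hence the reads. No library pair agreed within sampling noise (chi-square per gene 5.75 to 15.8). The highest value was between the IAA replicates and the lowest between IAA replicate 2 and control replicate 2, while the controls gave 8.12.

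Groups were compared with limma 3.58.1 in R 4.3.3 (trend) on log2(TPM + 1), which understates changes of low genes, over 17896 genes (minimum 1 TPM in 2 or more libraries), with Benjamini-Hochberg adjustment over all of them. The code was tested on simulated data. The 9 genes and the lists were chosen with earlier results of these data known. All 9 were named, with the 2 genes of smallest p in each direction of each list and the 3 nearest in pattern to the top receptor and ligand. A gene that the rule names in the PI3-kinase and AKT list is not reported here. Alternatives were another pseudocount (0.1), filters, scaling, voom, a replicate block, protein-coding genes alone and each library left out.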

Additional observations from a re-analysis of the deposited data

How the results depend on the processing

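The 9 genes kept their sign and stayed short of the threshold in all 63 values from 7 alternatives with all 4 libraries, with a limma adjusted p of at least 0.954 and a largest shift of 0.0247. Protein-coding genes alone was an alternative chosen after the data were seen. It gave 12 higher and 25 lower genes in all, and voom 1 higher. With the replicate number as a block, 0 genes passed. The numbers are not known to pair samples, and the deviations of same-numbered libraries had a correlation over 17896 genes of -0.07. With each library left out in turn, between 0 and 707 genes were higher and between 0 and 573 lower, with 0 to 1 of the 9 (EREG, without IAA replicate 2) and 0 pathway genes. The log2 fold change then ran from -0.083 (without IAA replicate 1) to 0.17 for EGFR, with -0.060 without control replicate 2, from -0.17 to 0.014 (without control replicate 1) for ERBB2 and from -0.14 to 0.061 (without IAA replicate 2) for ERRFI1. The cause was not tested. The log2 ratio of summed ligand TPM ran from -0.02 to 0.03 and that of the receptors from -0.15 to 0.03. Without IAA replicate 1, 117 genes were higher and 310 lower, and without IAA replicate 2, 707 and 573. Fits without a library keep 1 residual degree of freedom, and the lone library is assumed to vary like the other group. In the fits without an IAA library, and with protein-coding genes alone, the prior degrees of freedom were infinite, so calls there rest on the variance trend over all genes. Without a control library they were 5.07 and 5.29, and 0 genes passed. Reads per gene limit HBEGF and BTC most.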
